A study of Mus musculus with 2 samples.

Results

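The genes described here are 10 transcripts of the hypoxia response and of glycolysis, out of 32285 gene rows listed in both matrices of this single-cell RNA-seq data set. They are Bnip3, Mif, Hilpda and Vegfa, and, for glucose entry and glycolysis, Slc2a1, Aldoa, Tpi1, Pgk1, Eno1 and Ldha. They were taken by symbol and chosen by measured values in part, namely the lower levels of Bnip3, Mif and Hilpda that had been seen in neutrophils at the high dose. All dose contrasts below are therefore descriptions, as is the contrast of vehicle cells between the libraries. None is offered as independent evidence of a direction.

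The cells came from female BALB/c mice, aged 7 to 8 weeks when bought, in which luciferase-expressing 4T1 cells (a mouse mammary carcinoma line) had been seeded into the liver through the spleen, part of which was removed. CBL0137, a curaxin that binds DNA and loosens it from histones, or its vehicle was given by hepatic arterial infusion (HAI), and cells were collected 5 days later from 2 pooled mice per group. Each of 2 droplet libraries, labelled liver and spleen, mixed a vehicle, a low dose and a high dose group, told apart by the hashtags A0301, A0305 and A0310. Which amounts of drug stood behind low and high dose is not stated in the sources read. The methods speak of cells isolated with CD11b+ beads and the labels of leukocytes, and cells like T and B cells were found in either library.

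Hypoxia-inducible factor (HIF) is a pair of subunits whose alpha member is hydroxylated and degraded when oxygen is present. When oxygen is short, HIF persists and raises genes that bring in glucose, carry it to lactate, store lipid, remove mitochondria and call in vessels. Neutrophils have few working mitochondria and draw most of their ATP from glycolysis, so that glycolytic transcripts are found in them also when oxygen is plentiful. Neutrophil-like cells and their immature forms are what mouse tumor studies often call granulocytic myeloid-derived suppressor cells.

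HIF binds the letters ACGTG or GCGTG, and the stretches below are shown because they hold matches before or just after the start of members on which the results turn. The windows run from 250 bases before to 50 bases after each RefSeq start site on GRCm38.p6, and all 10 members had at least 1. Of all 32851 windows in the table, 43.8% held ACGTG or GCGTG on either strand, and 19.6% held ACGTG. Among the windows closest to the annotated 5′ end of each member, 7 of 10 held a match and 5 of 10 held ACGTG, while the windows of Vegfa, Aldoa and Tpi1 held none. In the sequences, written 5′ to 3′ on the gene's strand, capitals mark every match on either strand. Those of Bnip3, Pgk1 and Ldha are the 250 bases before the start site, whereas the only match of Mif and of Hilpda lay after it and is shown within 30 bases.
Bnip3, chr7:138909507-138909756, minus strand: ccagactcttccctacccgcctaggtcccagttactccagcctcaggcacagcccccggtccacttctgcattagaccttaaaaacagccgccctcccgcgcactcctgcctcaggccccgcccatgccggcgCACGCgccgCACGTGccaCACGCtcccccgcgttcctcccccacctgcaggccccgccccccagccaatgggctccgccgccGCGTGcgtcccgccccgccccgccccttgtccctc
Mif, chr10:75860229-75860258, minus strand: tgagctgggtCACGTagctcaggtccctgg
Hilpda, chr6:29272503-29272532, plus strand: caaccgcgagccGCGTGctttccgtgactc
Pgk1, chrX:106186850-106187099, plus strand: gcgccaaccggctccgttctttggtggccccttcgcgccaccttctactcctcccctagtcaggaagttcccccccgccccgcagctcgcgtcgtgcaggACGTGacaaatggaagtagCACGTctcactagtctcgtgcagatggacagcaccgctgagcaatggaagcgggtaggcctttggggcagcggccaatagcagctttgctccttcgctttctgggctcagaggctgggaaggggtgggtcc
Ldha, chr7:46845554-46845803, plus strand: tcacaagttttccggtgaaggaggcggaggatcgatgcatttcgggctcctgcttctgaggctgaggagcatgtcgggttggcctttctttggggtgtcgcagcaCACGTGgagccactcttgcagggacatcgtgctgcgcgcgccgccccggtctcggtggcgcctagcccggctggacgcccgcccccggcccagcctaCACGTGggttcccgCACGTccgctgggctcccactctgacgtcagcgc
The Bnip3 stretch holds 5 matches, those of Pgk1 and Ldha 2 and 5, and those of Mif and Hilpda 1 each, where CACGTG counts on both strands, and the Ldha window holds 2 more after the start site, which are not shown. The start site of this Ldha window lies 4329 bases inside the gene as GENCODE release M21 draws it. That of the Mif window lies 37 bases before the 5′ end of the gene so drawn, and the Mif match also lies before that end. Vegfa and Aldoa have other windows that hold a match (1 of 2 and 2 of 3), so their absence here describes only the window chosen. A match is a string of letters and does not show that a factor is bound.

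Both libraries were sorted into groups by their hashtags before any level was read. The liver-labelled library held 9591 barcodes and the spleen-labelled library 4830, with 15 barcode sequences in common. Cells with exactly 1 hashtag numbered 3103, 3194 and 2138 for vehicle, low and high dose in the former and 822, 1301 and 865 in the latter, with 17333148 to 26508853 and 7130127 to 10589251 UMIs (unique molecular identifiers, 1 per captured transcript) per group. Transcripts of liver cells went against the labels: Kupffer cell markers summed to 8.96 CPM (UMIs per 1000000 UMIs) over the liver-labelled library, with Clec4f at 0, and to 481 CPM over the spleen-labelled library, and hepatocyte markers to 0.102 and 83.4 CPM. The tissue in each deposited file's name, too, was the reverse of the label. Each library is therefore called by its label only, and no tissue is read from it. Every group was 1 pooled sample per library, so no test between groups was possible, and the 95% intervals cover counting error only and say nothing of how mice vary. Summed UMIs of a class cannot tell fewer cells with a transcript from less transcript per cell. A gene was read as lower or higher when its CPM differed at least 1.5-fold and it had at least 50 UMIs over both groups.

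The 4 hypoxia response members differ in what they do. Bnip3 (ENSMUSG00000078566, chr7:138890836-138909519) encodes a protein of the outer mitochondrial membrane that marks mitochondria for removal, and Mif (ENSMUSG00000033307, chr10:75859353-75860240) a cytokine, macrophage migration inhibitory factor. Hilpda (ENSMUSG00000043421, chr6:29272488-29275446) encodes a lipid droplet protein that restrains the breakdown of stored fat, and Vegfa (ENSMUSG00000023951, chr17:46016993-46032369) the growth factor that draws in vessels. Slc2a1 (ENSMUSG00000028645, chr4:119108711-119137983) encodes the glucose transporter GLUT1. The glycolytic enzymes follow in the order of the pathway: the aldolase gene Aldoa (ENSMUSG00000030695, chr7:126795234-126800751), the triosephosphate isomerase gene Tpi1 (ENSMUSG00000023456, chr6:124810586-124814296), the phosphoglycerate kinase gene Pgk1 (ENSMUSG00000062070, chrX:106187100-106203699), the enolase gene Eno1 (ENSMUSG00000063524, chr4:150236721-150248879) and the lactate dehydrogenase gene Ldha (ENSMUSG00000063229, chr7:46841475-46855627). A second row with the symbol Aldoa held 0 UMIs in both libraries. Eno1 reads could be split with its copy Eno1b, which had 409 UMIs in the liver-labelled library and 228 in the spleen-labelled library, against 16938 and 9677 for Eno1.

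Neutrophil-like cells, the class in which the lower levels had been noticed, numbered 1330 after the vehicle, 1188 at the low dose and 182 at the high dose in the liver-labelled library and 227, 452 and 58 in the spleen-labelled library. Their defining transcripts S100a8 and S100a9 made up 30.6% to 34.8% of their UMIs in the former and 22.6% to 26.8% in the latter. In the vehicle groups, the members stood far apart between the libraries. Bnip3, Mif and Hilpda were higher in neutrophil-like cells of the spleen-labelled library, Hilpda by more than any other member, whereas Eno1 hardly differed.

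**Figure D1:**
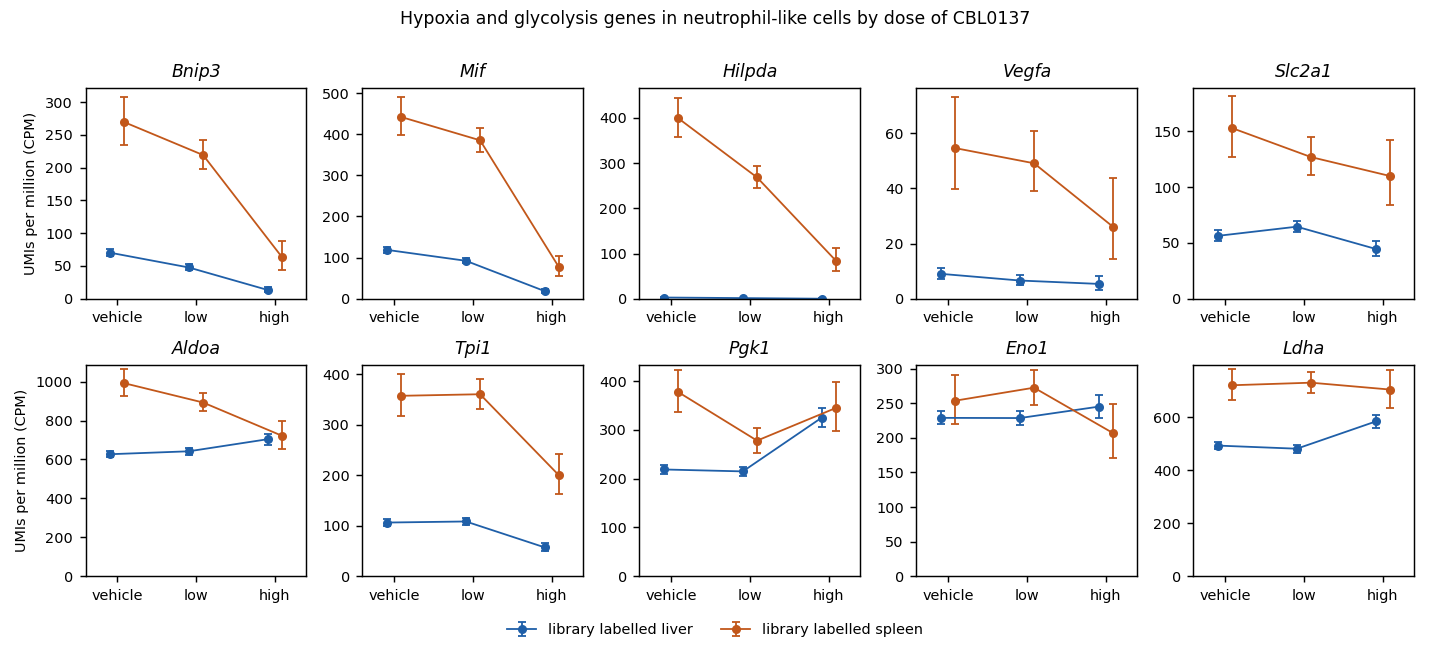
Level of each member in neutrophil-like cells, in UMIs per 1000000 UMIs of the class (vertical axis, from 0), for the vehicle, low and high dose groups (horizontal axis). Points are 1 pooled sample each, bars are exact 95% Poisson intervals (counting error only), blue is the liver-labelled library and orange the spleen-labelled library; Bnip3 went from 269.6 to 63.4 CPM in the latter while Ldha stayed between 705 and 731 CPM.

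Hilpda was at 399 CPM in vehicle neutrophil-like cells of the spleen-labelled library and at 2.65 CPM in those of the liver-labelled library, from 329 and 25 UMIs, a log2 ratio of 7.23 (interval 6.65 to 7.88). Vegfa was 6.06-fold higher (54.6 against 9.02 CPM), Bnip3 3.84-fold (269.6 against 70.3 CPM), Mif 3.72-fold (442 against 119 CPM), Tpi1 3.36-fold (357 against 106 CPM) and Slc2a1 2.71-fold (153 against 56.4 CPM). Aldoa, Pgk1 and Ldha differed less, with log2 ratios of 0.66, 0.79 and 0.55. For Eno1 the log2 ratio was 0.15 (-0.06 to 0.35). At least 1.5-fold higher in the spleen-labelled library were 8 of 10 members, against 13.4% of 6760 genes with enough UMIs, and none was 1.5-fold lower, against 15.1%. The median log2 ratio was 1.59 for the members and 0.00 for all genes tested. These sizes changed with the processing, and over 11 alternatives Bnip3 ran from 0.71 to 1.94, Mif from 0.62 to 1.90 and Slc2a1 from 0.46 to 1.44, while Hilpda stayed between 5.73 and 7.23. The libraries were made separately, so library, tissue and handling cannot be told apart. The class also differed in make-up. Stfa3, Cstdc5, Asprv1 and Ifitm6 were among leading genes of liver-labelled cluster 4, named neutrophil-like, and of spleen-labelled cluster 2, named immature neutrophil-like. Markers of immature neutrophils summed to 26697 and 8034 CPM in vehicle neutrophil-like cells of the libraries labelled liver and spleen. The part of this make-up in the contrast was not tested. Bnip3, Mif and Hilpda had been chosen by a contrast with vehicle neutrophils, so the count and the median above may follow in part from that choice.

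Immature neutrophil-like cells, which carry transcripts of secondary granules such as Camp and Ltf, differed between the libraries in the same direction for 7 members. In vehicle cells Hilpda was at 24.0 CPM in the spleen-labelled library and at 1.58 CPM in the liver-labelled library, Bnip3 at 27.7 and 5.93 CPM, and Mif at 137 and 24.5 CPM. Higher by at least 1.5-fold were 7 of 10 members, against 21.9% of 4617 genes (none lower, against 7.65%). Aldoa, Eno1 and Ldha were within 1.5-fold. The class was cluster 13 in the liver-labelled library and clusters 2 and 10 in the spleen-labelled library. In the latter, 235 of the 292 vehicle Mif UMIs came from the 60 vehicle cells of cluster 10. Leading genes of cluster 10 include Cebpe, Fcnb and Elane. The classes may therefore hold different stages, and the part of this in the contrast was not tested.

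The high dose of CBL0137 went with lower Bnip3 and Mif in neutrophil-like cells of both libraries. Hilpda was lower in the spleen-labelled library and had too few UMIs to be read in the liver-labelled library. Tpi1 and Vegfa were lower by less, and the other enzymes of glycolysis and Slc2a1 were within 1.5-fold of the vehicle, though for Tpi1, Vegfa, Slc2a1 and Pgk1 this reading changed under some alternatives. The hypoxia response members had a median log2 ratio of -2.40 (3 with enough UMIs) and -2.17 (all 4) in the libraries labelled liver and spleen, and the 6 members of glucose entry and glycolysis had medians of 0.13 and -0.38. Over all genes the medians were -0.42 and -0.22. Bnip3, Mif and Hilpda had been chosen for lower levels at the high dose, and Vegfa had not. The medians of the hypoxia response members thus follow in part from that choice.

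Bnip3 was at 70.3 CPM (vehicle), 47.6 CPM (low dose) and 13.3 CPM (high dose) in the liver-labelled library, and at 269.6, 219 and 63.4 CPM in the spleen-labelled library. Both libraries kept the order vehicle, low dose, high dose, and the high dose interval lay below the vehicle interval in each. The log2 ratio of high dose to vehicle was -2.40 (interval -2.86 to -1.98) and -2.09 (-2.65 to -1.56), or 5.29-fold and 4.25-fold lower. The low dose ratio of the spleen-labelled library, -0.30 (-0.54 to -0.05), was 0.01 when immature neutrophil-like cells were added.

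Mif was at 119, 92.2 and 18.4 CPM in the liver-labelled library and at 442, 385 and 76.5 CPM in the spleen-labelled library, in the same order of doses. Its log2 ratios were the most negative among the members with a value in both libraries, -2.69 (-3.08 to -2.33) and -2.53 (-3.03 to -2.06), that is 6.47-fold and 5.78-fold lower at the high dose. The value of the spleen-labelled library rests on the exclusion of immature cells, since with the immature neutrophil-like cells added it was -0.89, while that of Bnip3 was -2.005 and that of Hilpda -1.78.

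Hilpda could be followed only in the spleen-labelled library, at 399, 268 and 83.9 CPM, a log2 ratio of -2.25 (-2.73 to -1.80) or 4.76-fold lower at the high dose. Its 25 UMIs in vehicle neutrophil-like cells of the liver-labelled library (2.65 CPM) stood against 12 at the low dose and 0 at the high dose. At the 3 UMIs that a count of 0 allows, the high dose level there would be 3.13-fold below the vehicle value. That figure leaves out the counting error of the vehicle value.

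Vegfa had few UMIs, with 9.02, 6.60 and 5.37 CPM in the liver-labelled library and 54.6, 49.1 and 26.1 CPM in the spleen-labelled library. Its intervals of the high dose ratio reached close to 0, at -0.75 (-1.55 to -0.02) and -1.07 (-2.05 to -0.17). Slc2a1 was at 56.4, 64.6 and 44.6 CPM and at 153, 127 and 110.0 CPM, with log2 ratios of -0.34 and -0.48.

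Among the enzymes, Tpi1 was the member that stood out. Its level was 106, 108 and 57.1 CPM in the liver-labelled library and 357, 360 and 199.6 CPM in the spleen-labelled library, so that the low dose lay close to the vehicle and the high dose was 1.86-fold and 1.79-fold lower. Pgk1, the next enzyme but one downstream, went the other way in the liver-labelled library, from 219 and 215 to 325 CPM (log2 ratio 0.57, 0.47 to 0.68), and was at 378, 278 and 345 CPM in the spleen-labelled library (-0.13, -0.40 to 0.14). Ldha was at 493, 482 and 584 CPM and at 721, 731 and 705 CPM, with log2 ratios of 0.24 and -0.03. Eno1 moved little, with 229, 229 and 245 CPM and 254, 273 and 207 CPM. Aldoa moved in opposite directions, from 627 to 704 CPM in the liver-labelled library (0.17, 0.10 to 0.24) and from 992 to 722 CPM in the spleen-labelled library (-0.46, -0.64 to -0.28).

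**Figure D2:**
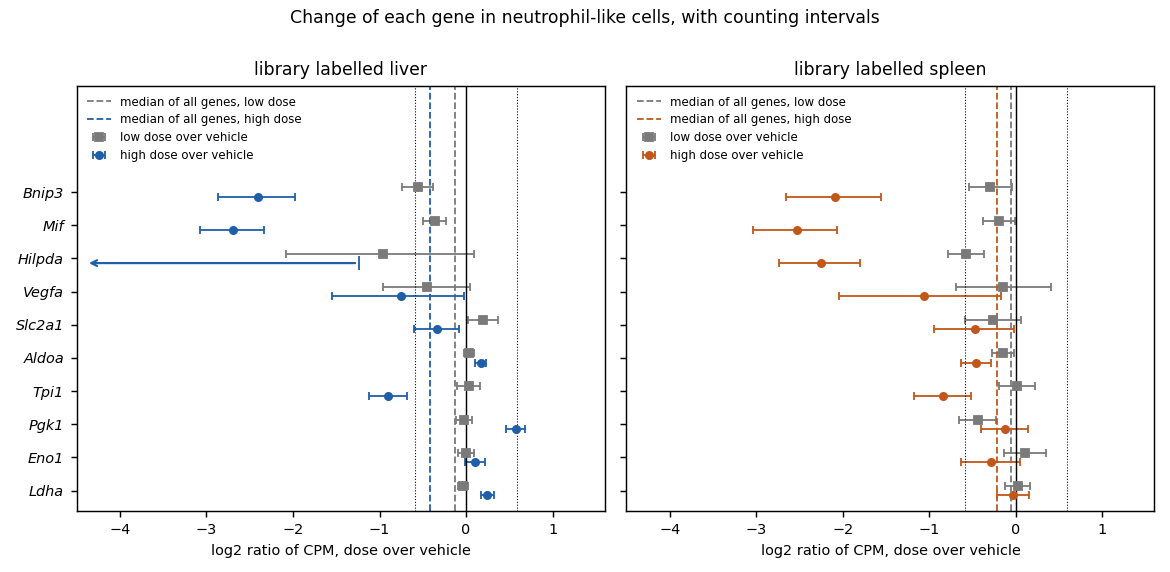
Log2 ratio of CPM in neutrophil-like cells (horizontal axis) of the low dose (grey squares) and high dose (colored circles) over the vehicle, 1 gene per row, with exact 95% intervals for counting error; dashed lines are the medians of all genes tested, dotted lines 1.5-fold. Bnip3, Mif and Hilpda lie between -2.09 and -2.69 at the high dose, and the arrow marks Hilpda in the liver-labelled library, which had 0 UMIs at the high dose.

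At the high dose, 4 of 9 members with enough UMIs were at least 1.5-fold lower in the liver-labelled library (Bnip3, Mif, Vegfa and Tpi1), against 39.1% of 7040 genes. That share of members was near the background. The spleen-labelled library had 5 of 10 lower (the same 4 and Hilpda), against 25.8% of 2354 genes. None was 1.5-fold higher in either, against 3.24% and 9.09%. Bnip3, Mif and Hilpda had been chosen for lower levels in neutrophils at the high dose, so the counts of lower members follow in part from that choice. Vegfa and Tpi1 were the lower members outside it. Vegfa was no longer 1.5-fold lower in the liver-labelled library without the 20 most abundant genes (log2 ratio -0.57) and in the spleen-labelled library by the mean over cells (-0.576), nor was Tpi1 in the latter with immature neutrophil-like cells added (-0.36). Slc2a1 became 1.5-fold lower in the liver-labelled library by the mean over cells (-0.61) and in the spleen-labelled library under 6 of 11 alternatives (to -0.77), and Pgk1 became 1.5-fold higher in the former under 8 of 11 (to 0.93). At the low dose no member passed 1.5-fold in either direction in the liver-labelled library, against 8.47% of 7733 genes lower and 1.66% higher. No member passed it at the low dose in the spleen-labelled library, against 8.51% of 3620 genes lower and 5.08% higher. Bnip3 at the low dose came nearest in the liver-labelled library (log2 ratio -0.56, -0.74 to -0.38) and Hilpda in the spleen-labelled library (-0.57, -0.78 to -0.36). Both doses share the vehicle group.

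Depth and foreign transcripts moved with the dose. Median UMIs per neutrophil-like cell went from 3970 (vehicle) to 18159 (high dose) in the liver-labelled library and from 2806 to 8533.5 in the spleen-labelled library. All 6 macrophage markers were detected in these cells of the spleen-labelled library in every group, and they summed to 61.1 to 89.9 CPM at the vehicle and low dose and 601 CPM at the high dose. Hepatocyte markers, 7 of 7 detected in every group, went from 87.4 to 683 CPM there, and 4T1 markers from 14.6 to 61.5 CPM, with Epcam, Krt19 and Cldn4 at 0 in both. The liver-labelled library had 3.11 to 22.5 CPM of macrophage markers, lowest at the high dose, and 0 UMIs of the 4T1 markers at the high dose. Markers of immature neutrophils, 7 of 7 detected throughout, went from 26697 to 34461 CPM and from 8034 to 16651 CPM between vehicle and high dose in the libraries labelled liver and spleen. The part of depth or of these transcripts in the results was not tested.

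Shares of cells with a UMI, after thinning each cell to 500 UMIs, gave the same picture for Bnip3 and Mif. In the spleen-labelled library 14.5% (10.2 to 19.8) of vehicle, 11.1% (8.32 to 14.3) of low dose and 1.72% (0.0436 to 9.24) of high dose neutrophil-like cells had a Bnip3 UMI, with exact binomial intervals. For Mif the shares were 21.6% (16.4 to 27.5), 18.1% and 3.45% (0.420 to 11.9). Those of Hilpda were 12.8% (8.73 to 17.8), 9.51% and 5.17% (1.08 to 14.4), where the high dose and vehicle intervals overlap. Without thinning, at 8533.5 against 2806 median UMIs, Mif alone of the members was lower with intervals apart (45.8% and 24.1%), and the shares of all 5 enzymes were higher in the deeper high dose cells with intervals apart, for Pgk1 51.1% and 86.2%. The 31 vehicle B cell-like cells, used as a comparison for free RNA at a median of 2483 UMIs, had Bnip3 in 0 cells (upper limit 11.2%), Mif in 12.9% (3.63 to 29.8) and Hilpda in 3.23% (0.0816 to 16.7). The intervals of Mif and of Hilpda there span the vehicle shares of neutrophil-like cells. B cell-like cells may also hold these transcripts of their own, and 31 cells give wide intervals. The comparison therefore cannot decide whether the shares of Mif and Hilpda in neutrophil-like cells exceed free RNA.

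The liver-labelled library had Bnip3 in 6.77% (5.48 to 8.25) of vehicle and 1.10% (0.133 to 3.91) of high dose neutrophil-like cells, and Mif in 9.25% (7.74 to 10.9) and 1.65% (0.341 to 4.74). B cell-like cells there had Bnip3 in 0.569% (0.118 to 1.65) and Mif in 8.73% (6.46 to 11.5) of vehicle cells, at a median of 3501 UMIs against 3970. The share of Mif in vehicle neutrophil-like cells thus lay within the interval of the B cell-like cells, and that of Bnip3 at the high dose did too.

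Neutrophil-like cells were not uniform, and Bnip3, Mif and Hilpda were concentrated in some of their clusters. The clusters were built without the members or the listed pathway genes among the variable features. The leading genes of clusters 2 and 3 in the liver-labelled library include Il1b, those of cluster 4 stefin genes, and those of clusters 4 and 8 Prok2. In the spleen-labelled library, Il1b, Ccrl2 and Hcar2 lead cluster 1, with Hilpda itself among its leading genes, and Retnlg and Wfdc17 lead cluster 0. Stefin genes and Prok2 are also among the leading genes of cluster 0.

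Clusters 2 and 3 of the liver-labelled library gave 60.7% and 28.4% of the Bnip3 UMIs and 62.7% and 29.1% of the Mif UMIs of vehicle neutrophil-like cells. They held 49.1% and 26.2% of the vehicle cells, 25.7% and 38.1% of the low dose cells, and 4.95% and 1.65% (9 and 3 cells) of the high dose cells. Cluster 4 held 148 of the 182 high dose cells and 245 of the vehicle cells. Within cluster 4, Bnip3 was at 13.6 CPM (vehicle), 20.5 CPM (low dose) and 12.1 CPM (high dose), a high dose log2 ratio of -0.18 (-0.81 to 0.44). Mif there was at 15.7, 23.6 and 18.2 CPM, a ratio of 0.21 (-0.32 to 0.75). Neither gene was thus detectably lower at the high dose within the cluster that held most of the high dose cells. Tpi1, lower over the class, was not detectably lower within cluster 4 either (high dose log2 ratio -0.15, -0.43 to 0.13). The interval of Vegfa there reached past 0 (-0.87, -1.84 to 0.03). Slc2a1 was higher within cluster 4 (0.43, 0.08 to 0.78), although its ratio over the class was negative. Pgk1 was higher by less than over the class (0.26, 0.13 to 0.38). Clusters 2 and 3, where Bnip3 was at 155 and 140.4 CPM and Mif at 271 and 243 CPM after the vehicle, had too few high dose cells for a comparison. At the low dose Bnip3 was lower within both, with log2 ratios of -0.71 (-1.01 to -0.41) and -0.60 (-0.91 to -0.30). It was higher within cluster 4 (0.59, 0.07 to 1.11) and cluster 8 (1.21, 0.35 to 2.17, from 14 to 57 UMIs). Mif at the low dose was lower within cluster 2 (-0.26, -0.47 to -0.06) and higher within cluster 4 (0.58, 0.10 to 1.07). Its intervals in clusters 3 and 8 crossed 0.

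Cluster 0 of the spleen-labelled library, by contrast, held enough cells of every group (109, 147 and 52). Bnip3 in it was at 164 CPM after the vehicle, 72.0 CPM at the low dose and 37.1 CPM at the high dose, a high dose log2 ratio of -2.14 (-2.96 to -1.40). Mif was at 190.5, 145 and 30.9 CPM, a ratio of -2.62 (-3.51 to -1.84), so both were lower within a cluster as well as over the class. Median UMIs per cell in cluster 0 were 4694, 4506 and 8601.5. The cells of this cluster may thus differ between groups in more than these genes, and the part of that was not tested. Hilpda was at 82.7, 61.7 and 49.5 CPM (-0.74, -1.52 to 0.00098), and Tpi1 was lower by less (-0.58, -1.02 to -0.16). The high dose intervals of Vegfa (-0.74, -1.93 to 0.38) and Slc2a1 (-0.09, -0.66 to 0.47) in this cluster crossed 0.

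Most Hilpda UMIs of vehicle cells, 86.0%, came from cluster 1, where Hilpda stood at 1059 CPM, Mif at 966 CPM and Bnip3 at 490 CPM. The same cluster counted 118 vehicle cells among 227, 184 low dose cells among 452 and 4 high dose cells among 58. Those 4 cells gave 13 of the 45 Hilpda, 19 of the 41 Mif and 6 of the 34 Bnip3 UMIs of high dose neutrophil-like cells. The low dose cells of cluster 1 had 658 CPM of Hilpda and 617 CPM of Mif, with log2 ratios of -0.69 (-0.93 to -0.45) and -0.65 (-0.90 to -0.40). A further cluster, 12, held 121 low dose cells, 2 high dose cells and no vehicle cell, and had 264 CPM of Bnip3, 493 CPM of Mif and 196 CPM of Hilpda at the low dose. Its 2 high dose cells gave 8 Hilpda, 7 Mif and 10 Bnip3 UMIs. The high dose levels of the class thus rest in part on few cells.

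**Figure D3:**
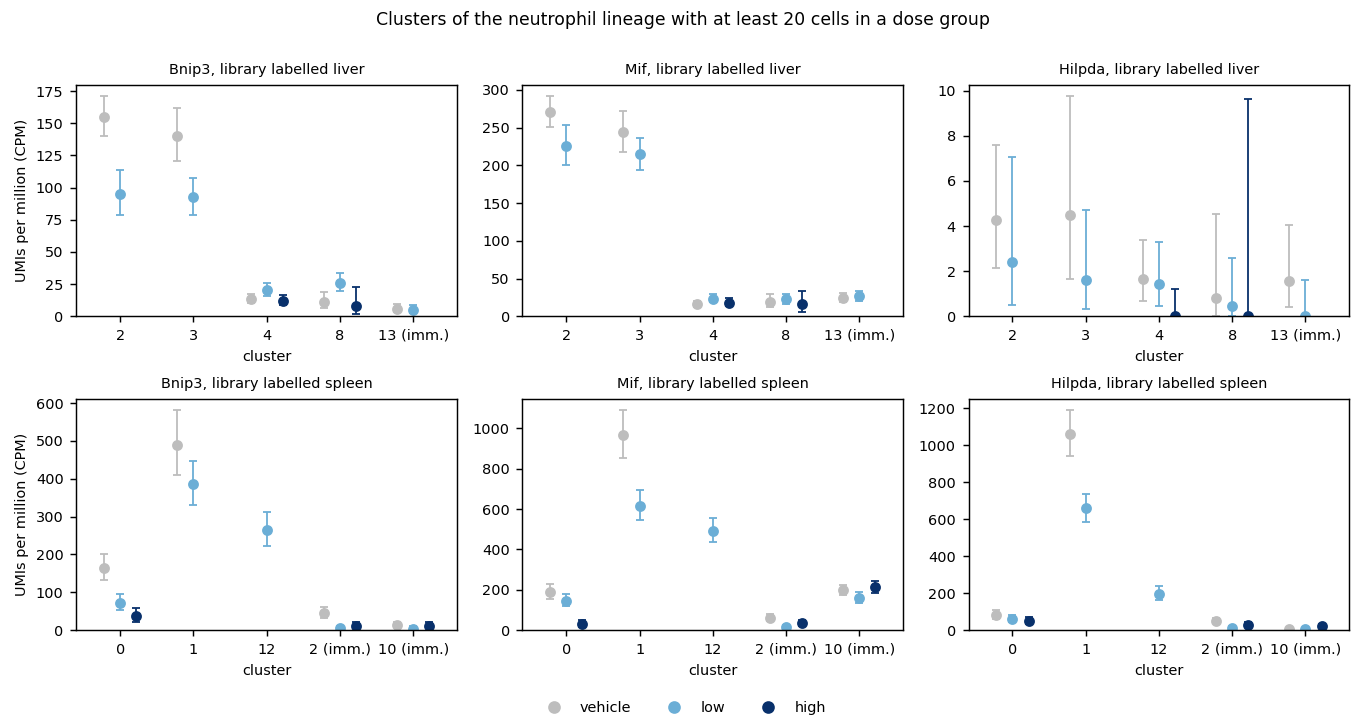
Bnip3, Mif and Hilpda in the clusters of neutrophil-like and immature (imm.) neutrophil-like cells, in UMIs per 1000000 (vertical axis, from 0), for dose groups with at least 20 cells in the cluster; points are pooled samples and bars exact 95% Poisson intervals. Clusters 2 and 3 above (for Bnip3 and Mif) and clusters 1 and 12 below carry the high levels and lack a high dose point, and cluster 0 below shows Bnip3 from 164 to 37.1 CPM.

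Immature neutrophil-like cells of the spleen-labelled library (134, 171 and 97 cells) had their lowest values at the low dose. Bnip3 was at 27.7, 5.29 and 11.8 CPM, Hilpda at 24.0, 8.81 and 23.6 CPM, Vegfa at 24.9, 9.25 and 11.2 CPM and Mif at 137, 78.4 and 133 CPM for the vehicle, low and high dose. At the low dose 4 of 10 members were lower, namely these 4, against 7.37% of 4533 genes, and none higher, against 2.25%. At the high dose Bnip3 and Vegfa were lower, 2 of 10, against 2.06% of 4468 genes, with log2 ratios of -1.23 and -1.15, and none was higher, against 7.43%. In cluster 2 of these cells Vegfa went from 37 UMIs in 74 vehicle cells to 5 UMIs in 120 low dose and 5 UMIs in 55 high dose cells. Hilpda at the high dose was lower in cluster 2 (log2 ratio -0.84, -1.65 to -0.08) and higher in cluster 10 (2.28, 0.83 to 4.05, from 5 to 20 UMIs). Mif at the high dose was lower in cluster 2 (-0.86, -1.57 to -0.17) and not detectably different in cluster 10 (0.12, -0.15 to 0.40). The liver-labelled library held 16 immature cells at the high dose, too few for a comparison. At the low dose 1 of 7 members was lower there (Slc2a1, against 3.43% of 4467 genes), with an interval that crosses 0, and none higher, against 3.34%.

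Other cell classes differed from neutrophil-like cells both in level and in direction. Among classes with at least 30 vehicle cells, Bnip3 was highest in neutrophil-like cells of either library, ahead of macrophage-like cells at 195 CPM in the spleen-labelled library, and its interval did not overlap the next in either. Hilpda was highest in neutrophil-like cells of the spleen-labelled library (399 CPM), ahead of macrophage-like cells (263 CPM), but in the liver-labelled library macrophage-like cells led with 83.8 CPM. Slc2a1 was highest in neutrophil-like cells of both, though in the spleen-labelled library the interval overlapped that of macrophage-like cells (153 and 143 CPM).

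Mif was led by other classes. In the spleen-labelled library macrophage-like cells reached 1157 CPM and granulocyte progenitor-like cells 983 CPM, against 442 CPM in neutrophil-like and 137 CPM in immature neutrophil-like cells. In the liver-labelled library granulocyte progenitor-like cells had 425 CPM, with an interval that overlapped those of macrophage-like cells (381 CPM), and neutrophil-like and immature neutrophil-like cells were last of 7 classes at 119 and 24.5 CPM. Vegfa was highest in macrophage-like cells of the spleen-labelled library at 105 CPM, and at most 13.5 CPM in the 7 classes of the liver-labelled library.

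The enzymes shared their highest class in the spleen-labelled library, where macrophage-like cells had the most of Aldoa, Tpi1, Pgk1, Eno1 and Ldha (1113, 801, 974, 365 and 1038 CPM) and B, endothelial or hepatocyte-like cells the least. For Aldoa the macrophage-like and neutrophil-like intervals overlapped. In the liver-labelled library monocyte-like cells were first for Aldoa, Tpi1, Pgk1 and Eno1 (729, 225, 544 and 367 CPM) and granulocyte progenitor-like cells for Ldha (646 CPM), with overlap with the next class for Aldoa and Ldha. The 4T1 tumor cell-like cluster of the spleen-labelled library numbered 6 vehicle, 13 low dose and 41 high dose cells and had 2886 CPM of Mif, 934 CPM of Tpi1 and 1861 CPM of Ldha at the high dose.

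**Figure D4:**
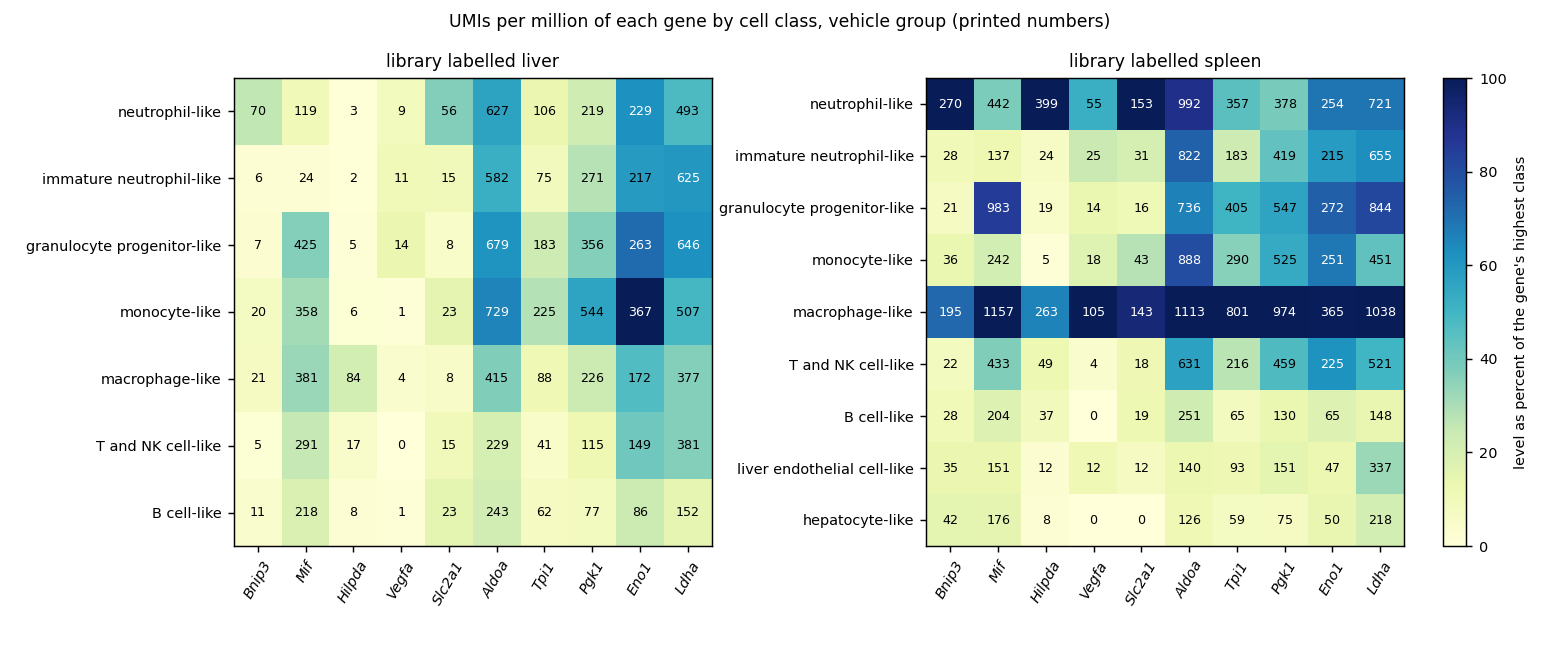
Level of each member by cell class in the vehicle groups, in UMIs per 1000000 (printed numbers), for classes with at least 30 cells; shading is the level as a percent of that gene's highest class over both libraries, so shades compare classes within a gene and not genes with each other. Neutrophil-like cells of the spleen-labelled library are darkest for Bnip3, Hilpda and Slc2a1, and macrophage-like cells for Mif, Vegfa and 4 of the 5 enzymes.

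Monocyte-like cells of the spleen-labelled library (74, 81 and 40 cells) moved opposite to neutrophil-like cells. Bnip3 was at 36.1 CPM (vehicle), 52.9 CPM (low dose) and 84.6 CPM (high dose), a high dose log2 ratio of 1.23 (0.53 to 1.95). Vegfa was at 18.1, 35.9 and 64.3 CPM (1.83, 0.92 to 2.83) and Slc2a1 at 42.6, 86.7 and 108 CPM (1.35). For these 3 genes the levels were ordered by dose. At the high dose 5 of 9 members were higher (with Tpi1 and Eno1), against 10% of 3560 genes, and none lower, against 5.28%. Only Slc2a1, 1 of 8 members, was higher at the low dose, against 8.75% of 4183 genes, and none lower, against 4.47%. Macrophage markers in these cells summed to 533, 679 and 516 CPM (5, 6 and 6 of 6 detected, Vcam1 at 0 in the vehicle group) and neutrophil markers to 17902, 15575 and 20577 CPM, and their part was not tested. The liver-labelled library held 26 monocyte-like cells at the high dose, too few for a comparison, and at the low dose none of 8 members passed 1.5-fold, against 4.9% of 7463 genes lower and 4.56% higher.

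Macrophage-like cells of the spleen-labelled library (52, 83 and 82 cells) kept their high levels of Mif (1157, 1131 and 1061 CPM) and Hilpda (263, 273 and 261 CPM), with Hilpda at a high dose log2 ratio of -0.01. Vegfa was lower, 1 of 10 members, at 105, 139 and 55.0 CPM (-0.93, -1.38 to -0.47), against 5.91% of 5620 genes. Bnip3 was at 195, 200.4 and 139 CPM (-0.49). Neutrophil markers in these cells, 9 of 9 detected in every group, summed to 1031, 6394 and 5496 CPM and markers of immature neutrophils, 7 of 7 detected, to 176, 813 and 1380 CPM, and their part was not tested. None of the 10 was higher at the high dose, against 7.6%, and at the low dose none passed 1.5-fold, against 5.77% of 4936 genes lower and 7.19% higher. In macrophage-like cells of the liver-labelled library (63, 55 and 64 cells) Eno1 was at 172, 115 and 106 CPM, 1 of 5 members that was lower at the high dose, with an interval that crosses 0, against 14.6% of 974 genes lower and 8.32% higher. None of 5 passed at the low dose there, against 8.1% of 1272 genes lower and 12% higher.

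T and NK cell-like cells of the spleen-labelled library (44, 103 and 169 cells) had more Mif (433, 791 and 695 CPM), Tpi1 (216, 515 and 339 CPM) and Ldha (521, 756 and 858 CPM) after CBL0137. At the high dose 3 of 7 members were higher, against 20.3% of 4322 genes, and none lower, against 8.21%. Of 6 members 2 were higher at the low dose (Mif and Tpi1), against 11.2% of 2472 genes, and none lower, against 5.42%. In the liver-labelled library (625, 927 and 1081 cells) none of 8 members passed 1.5-fold at either dose, against 1.53% of 8610 genes lower and 3.46% higher at the high dose and 1.61% of 8267 lower and 2.81% higher at the low dose. The cells of the spleen-labelled library carried 48.6, 549 and 300.1 CPM of macrophage markers (4, 6 and 6 of 6 detected, C1qa and Vcam1 at 0 in the vehicle group) and 976, 5343 and 474 CPM of neutrophil markers (5, 8 and 8 of 9 detected, with Csf3r, Cxcr2, Mmp9 and Ly6g at 0 in the vehicle group, Ly6g at the low dose and Cxcr2 at the high dose). Cluster 5, led by Gzma and Ccl5, held 54.5%, 57.3% and 69.2% of the cells of this class in the spleen-labelled library. Cluster 13, led by Il7r and Lef1, held 45.5%, 42.7% and 30.8%. The part of these markers and clusters in the result was not tested.

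Liver endothelial cell-like cells (34, 104 and 108 cells, spleen-labelled library only) had 12 to 13 UMIs of Mif, Aldoa and Pgk1 and 8 of Tpi1 in the vehicle group, and all 4 were higher at both doses, 4 of 5 members tested, against 16.6% of 1873 genes at the high dose and 19.1% of 1275 at the low dose (none lower, against 11.3% and 7.37%). At the high dose the intervals of Mif (0.98, 0.16 to 1.92) and Aldoa (1.10, 0.26 to 2.09) lay above 0, and those of Tpi1 and Pgk1 crossed it. Mitochondrial UMIs made up 15.4% to 20.7% of all in this class and its macrophage markers went from 233 CPM (4 of 6 detected, C1qc and Adgre1 at 0) to 1306 CPM (6 of 6), and their part was not tested.

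Granulocyte progenitor-like cells of the liver-labelled library (147, 136 and 117 cells) had Mif at 425, 507 and 706 CPM, and a high dose log2 ratio of 0.73 (0.65 to 0.81). Higher at the high dose were 3 of 10 members (Mif, Hilpda and Slc2a1), against 31.4% of 8376 genes, and lower 1 of 10 (Vegfa), against 3.08%, so the share of higher members was near the background, whose median was 0.38. Cluster 10, led by Elane and Prtn3, held 74.1% of the vehicle and 36.8% of the high dose cells of this class, and cluster 18, led by Car2 and Myb, 25.9% and 63.2%. The class name fits cluster 18 less well. It had 4 markers of the class raised but 0 of them among its 10 leading genes, against 5 and 3 in cluster 10. T cell markers in the class, 7 of 7 detected, went from 110 to 538 CPM and neutrophil markers, 9 of 9 detected, from 203271 to 99403 CPM between vehicle and high dose, and the part of the clusters and markers was not tested. Hilpda was higher at the low dose, 1 of 10, from 26 UMIs in vehicle to 42 UMIs in low dose cells, against 4.51% of 7912 genes, and none lower, against 1.28%. Granulocyte progenitor-like cells of the spleen-labelled library (67 and 80 cells) had 983 and 1208 CPM of Mif at the vehicle and low dose. There Hilpda was lower, 1 of 9, from 32 to 27 UMIs, with an interval that crosses 0, against 5.57% of 6719 genes, and none higher, against 5.88%. B cell-like cells of the liver-labelled library (527, 545 and 441 cells) had 218, 240.0 and 227 CPM of Mif and no member past 1.5-fold at the high dose, of 7 tested, against 5.98% of 6770 genes lower and 2.5% higher. Low dose cells had more Bnip3, 1 of 8 members, from 23 to 34 UMIs, against 4.21% of 6987 genes, and none lower, against 4.62%. Those cells lay in other clusters, with cluster 17 holding 147 of the 545 low dose and 2 of the 527 vehicle cells, cluster 1 holding 46.4% and 79.1%, and cluster 19 holding 1 and 46 cells. The spleen-labelled library held 31, 34 and 66 B cell-like cells, with no member of 4 past 1.5-fold at the high dose, against 11.3% of 928 genes lower and 7.87% higher. Mif and Ldha were higher there at the low dose, 2 of 3, from 22 to 81 and from 16 to 36 UMIs, against 11% of 518 genes, and none lower, against 8.49%. Hepatocyte-like cells (56 and 81 at the vehicle and high dose) had 26 UMIs of Ldha in each group, 218 and 98.3 CPM, and Ldha was lower, 1 of 2 members, against 46.7% of 182 genes, and none higher, against 3.3%.

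**Figure D5:**
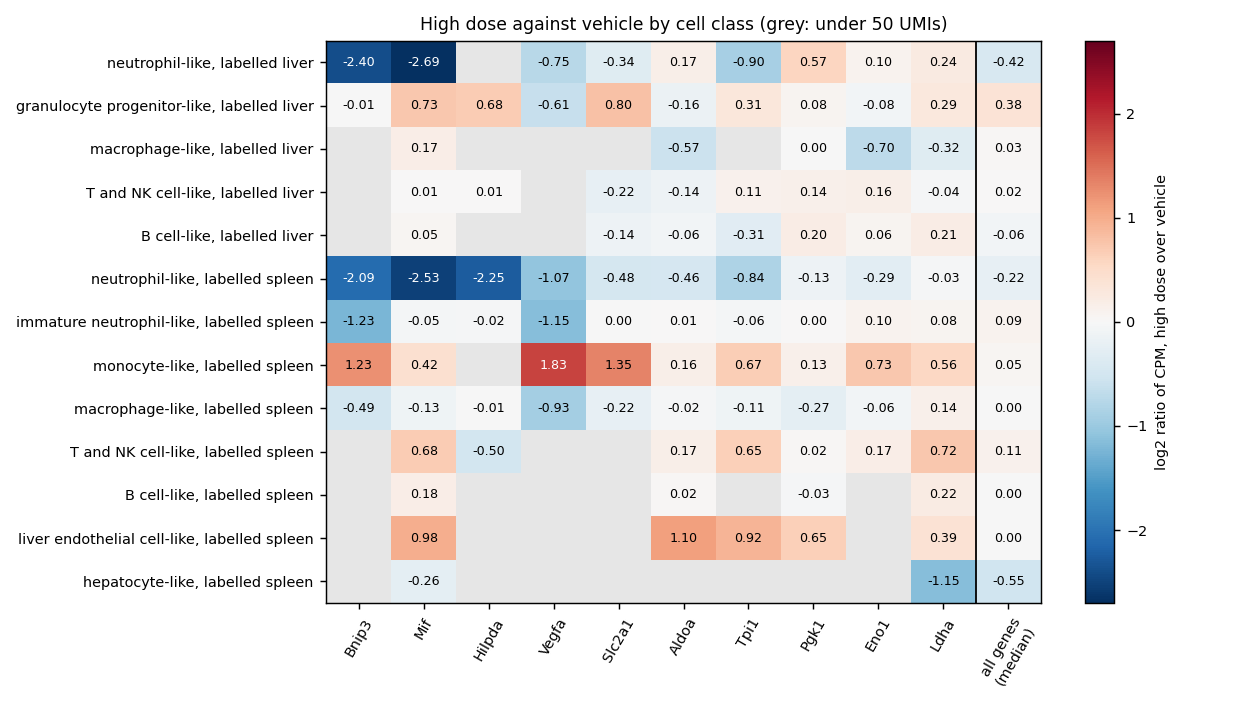
Log2 ratio of CPM, high dose over vehicle, for each member (columns) and cell class (rows) with at least 30 cells in both groups; blue is lower, red higher, grey under 50 UMIs over both groups, and the last column is the median of all genes tested. The lowest values, -2.09 to -2.69, stand in neutrophil-like cells for Bnip3, Mif and Hilpda, and the highest, 1.83, in monocyte-like cells for Vegfa.

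Other genes of the pathway were counted from lists over the whole class of neutrophil-like cells. The lists were chosen with earlier results of these data known, so the counts are descriptions. Both the mix of clusters and the depth of these cells differed between vehicle and high dose. Their part in the counts was not tested. Of 20 other hypoxia response genes, 15 had enough UMIs in the liver-labelled library and 12 were lower at the high dose, with a median log2 ratio of -0.83 against -0.42 over all genes and 39.1% of genes lower. In the spleen-labelled library 12 had enough and 7 were lower, with a median of -0.81 against -0.22 and 25.8% lower. Ankrd37, a HIF target of unsettled role, was at 26.6 CPM after the vehicle and 1.69 CPM at the high dose in the liver-labelled library, and at 55.9 and 16.8 CPM in the spleen-labelled library. Plin2, which coats lipid droplets, was at 619 and 198 CPM in the spleen-labelled library (log2 ratio -1.65, -1.96 to -1.34), and P4ha1, a collagen prolyl hydroxylase subunit, at 64.4 and 20.5 CPM. Pdk1, the kinase that shuts pyruvate dehydrogenase, was at 5.94 CPM after the vehicle and 0.565 CPM at the high dose (2 UMIs) in the liver-labelled library. The exception was Trf, the transferrin gene, which was higher in the spleen-labelled library (357 and 563 CPM).

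Other glycolysis genes had medians above those of all genes, at -0.01 and -0.15 against -0.42 and -0.22. Lower were 3 of 11 and 3 of 10 (Hk2, Pfkl and Pfkp in each library), 3 of 11 being below the 39.1% of all genes and 3 of 10 near the 25.8%. Hk3, a hexokinase of myeloid cells, was at 77.6 and 113 CPM in the liver-labelled library (0.54) and at 63.1 and 151 CPM in the spleen-labelled library (1.26, 0.74 to 1.79). Of the glucose and lactate transport genes, 0 of 3 and 2 of 3 (Slc2a3 and Slc2a6) were lower, against the same 39.1% and 25.8%. Among oxygen sensing genes and HIF subunits 3 of 7 (Arnt, Egln1 and Egln3) were lower in the liver-labelled library, a share near its background, with a median of -0.22 against -0.42, and 2 of 3 (Hif1a and Egln2) in the spleen-labelled library. The interval of Egln2 there crossed 0 (-0.64, -1.62 to 0.26). Egln1, the main HIF prolyl hydroxylase, was at 10.1 and 2.54 CPM in the liver-labelled library, while Hif1an, which hydroxylates HIF on asparagine, was at 8.49 and 11.6 CPM. For Hif1an the interval of the log2 ratio crossed 0 (0.45, -0.13 to 1.01). Of the genes of mitochondrial fuel entry 1 of 7 was lower (Pdhb, against 39.1%) and 1 higher (Pdk3, 21.8 and 39.0 CPM, against 3.24%) in the liver-labelled library and neither of 2 in the spleen-labelled library, where Mpc2, a subunit of the mitochondrial pyruvate carrier, was at 86.2 and 104 CPM. Its interval crossed 0 too (0.28, -0.26 to 0.80). At the low dose 2 of 15 (Pdk1 and Plin2) and 2 of 14 (Ndrg1 and Plin2) other hypoxia response genes were lower, against 8.47% and 8.51% of all genes, and no gene of the other lists was.

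Across 46 units of library, class and dose with at least 30 cells, the gene most like Bnip3 was Ptgs2 (Pearson r of log2(CPM + 10) = 0.84), which encodes the prostaglandin-forming cyclooxygenase, before Slc2a1 (0.83) and Smox (0.82). The genes most like Hilpda were Cxcl3 (0.80), Cd274 (0.74) and Fam162a (0.74), and its r with Bnip3 was 0.73. Mif stood apart from both: the nearest genes were Hsp90aa1 (0.87), Polr2f (0.87) and Eif4a1 (0.85), and its r was 0.40 with Bnip3 and 0.54 with Hilpda. The units share libraries and depth, so these values describe 10801 genes over these units and carry no p.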

How the data were processed

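Single-cell RNA and hashtag counts were read from 2 droplet libraries. The authors deposited raw UMI counts per gene and barcode, not normalized, aligned to mm10. The matrix headers name Cell Ranger 5.0.0 and the submitters' processing notes Cell Ranger 6.0.0 and Seurat. Hashtags were called with HTODemux (Seurat 5.3.0, quantile 0.99) in R 4.3.3, which removed 616 and 215 barcodes with more than 1 hashtag and left 540 and 1627 without a call in the libraries labelled liver and spleen. Scrublet marked 248 and 1 barcodes, so in the latter it did not work as a doublet caller, and its calls were used only as an alternative. No filter on cells was applied beyond the deposited matrices, and mitochondrial UMIs reached 98.9% and 99.0% of a barcode.

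Each library was normalized with sctransform 0.4.2 and clustered on 30 principal components at resolution 0.8, with the 10 members and the listed pathway genes left out of the variable features (2976 and 2960 remained), giving 21 and 18 clusters. Clusters were called "X-like" from lists of markers. The naming rule was completed after the data were seen, and the T and NK cell lists were merged then. The members and lists were chosen with earlier results of these data known.

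UMIs were summed per library, class and group and divided by the class total (CPM). Levels have exact Poisson intervals, ratios exact conditional binomial intervals and shares exact Clopper-Pearson intervals (scipy 1.17.1, 95%). Classes needed 30 cells per group and clusters 20. All 10 members are named; of the listed pathway genes, the 3 largest rises and 3 largest falls per library among genes with at least 50 UMIs are named, and other genes are named only within counts or beside these. For Bnip3, Mif and Hilpda, the 3 genes of highest Pearson r of log2(CPM + 10) are named among genes with at least 200 UMIs.

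Alternatives were MULTIseqDemux or the dominant hashtag (3 times its runner-up and 10 or more UMIs), a cell filter (at least 200 genes and under 10% mitochondrial UMIs), removal of Scrublet doublets, resolutions 0.4 and 1.6, all variable features, immature cells added, the mean over cells, totals without the 20 most abundant genes, UMI minimums of 0 and 200, and thinning to 1000 UMIs or none. Leaving out the 15 shared barcode sequences was added after seeing the data. The ratios and their intervals were tested on simulated Poisson counts. The hashtag calls, clusters, class names and thinned shares were not.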

Additional observations from a re-analysis of the deposited data

Results flagged for a closer look

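Aldoa in neutrophil-like cells had a high dose log2 ratio above 0 in the liver-labelled library (0.17) and below 0 in the spleen-labelled library (-0.46), with intervals on opposite sides of 0, and the difference between the libraries was not tested. Barcodes without a hashtag call, which entered no comparison, had more Mif than all vehicle cells of their library. Their level was 345 CPM (322 to 369) in the liver-labelled library against 229.7 CPM (224 to 236), and 871 CPM (845 to 899) in the spleen-labelled library against 574 CPM (556 to 591). These barcodes belong to no group and were given no cell class. A different mix of cells and a different level therefore cannot be told apart. Bnip3 was lower in them, at 8.77 against 31.4 CPM in the liver-labelled library and 50.5 against 76.4 CPM in the spleen-labelled library. Hilpda was higher in the former (10.8 against 6.60 CPM) and lower in the latter (25.1 against 91.3 CPM).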

How the results depend on the processing

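No paired analysis was possible because each group is 1 pooled sample per library. Over 11 alternatives the high dose log2 ratio in neutrophil-like cells of the libraries labelled liver and spleen ran from -3.06 to -2.23 and from -2.55 to -1.81 for Bnip3 and from -3.78 to -2.15 and from -2.88 to -0.89 for Mif, and from -2.44 to -1.78 for Hilpda in the latter. The cause of the changes below was not tested. In the liver-labelled library, members at least 1.5-fold higher at the high dose went from 0 to 1 (Pgk1) with MULTIseqDemux, the dominant hashtag, the cell filter, Scrublet doublets removed, resolution 1.6, all variable features, the mean over cells and totals without the 20 most abundant genes. Of the members named as lower at the high dose, Vegfa no longer passed 1.5-fold without the 20 most abundant genes there (-0.57) and by the mean over cells in the spleen-labelled library (-0.576), and Tpi1 in the latter with immature cells added (-0.36). Members lower at the low dose in the liver-labelled library went from 0 to 1 with MULTIseqDemux, the dominant hashtag, the cell filter, Scrublet doublets removed, all variable features and the mean over cells, and to 2 at resolution 1.6. In the spleen-labelled library they went from 0 to 1 at resolutions 0.4 and 1.6, with all variable features and with the mean over cells. Listed pathway genes higher at the high dose in the liver-labelled library went from 1 to 2 with MULTIseqDemux, the dominant hashtag, the cell filter, Scrublet doublets removed, resolution 1.6 and all variable features, and to 3 with the mean over cells and without the 20 most abundant genes. In the spleen-labelled library they went from 2 to 1 with MULTIseqDemux, the dominant hashtag, the cell filter, Scrublet doublets removed, resolutions 0.4 and 1.6, all variable features and a minimum of 200 UMIs, and to 11 with no minimum. With 200 UMIs needed, listed genes lower at the high dose went from 19 to 12 in the liver-labelled library and from 14 to 4 in the spleen-labelled library, where fewer genes were tested. Members whose share of cells was lower with intervals apart went from 2 to 1 without thinning in the spleen-labelled library. Leaving out the shared barcode sequences moved none of 49 member ratios beyond its interval. Every other alternative moved some of the 49, from 7 with the cell filter or the dominant hashtag to 15 at resolution 1.6 and 17 with immature cells added. The spleen-labelled library held 58 high dose neutrophil-like cells, and up to 124 under the alternatives, and a gene under 50 UMIs over both groups was not read.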
